A study of Mus musculus with 9 samples.

Results

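The 10 genes described here are targets that β-catenin is known to switch on, and most of them restrain Wnt signaling: Axin2, Notum, Wif1, Nkd1, Apcdd1, Rnf43, Znrf3, Sp5, Lef1 and Myc. Followed in mouse colon RNA, they were chosen by gene symbol as known genes of the pathway, with earlier results of these data known and without a threshold on their values, and all 10 were found among the 21498 symbols of the deposited tables. All 10 also passed the filter on low values (at least 0.1 FPKM in at least 3 samples), which 15278 genes passed. FPKM is the number of sequenced fragments scaled by transcript length and by the size of the library, so levels of different genes can be set side by side.

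Wnt proteins bind Frizzled and LRP receptors at the cell surface and stop a cytoplasmic complex of Apc, Axin, Gsk3 and casein kinase from marking β-catenin for degradation. Stabilized β-catenin enters the nucleus, binds TCF/LEF factors on DNA and turns on targets, many of which encode inhibitors of the same pathway, so that their transcripts serve as a readout of its activity. At the base of colon crypts this signaling maintains stem cells, and in intestinal tumors mutations of Apc or of the β-catenin gene Ctnnb1 are known to keep it on, although mutations were not measured here.

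The study asked how neutralizing S100a9, a calcium-binding protein of neutrophils, alters the colon in a model of colitis-associated cancer, and sequenced RNA from 9 male mice of the outbred ICR strain, 3 per group. Mice of all 3 groups were 5 weeks old at the start. Control mice, labelled normal colorectal mucosa, received neither AOM, DSS nor an antibody. Mice of the AOM/DSS + IgG Ab group and of the AOM/DSS + anti-S100a9 Ab group received a single intraperitoneal dose of 10 mg/kg azoxymethane (AOM), a colon carcinogen, and then 3 cycles of dextran sulfate sodium (DSS), which injures the epithelium, in their drinking water (7 days at 2% in the first cycle, 5 days at 1.5% in cycles 2 and 3). The antibodies were given intravenously at 1.5 mg/kg every 2 days during the DSS cycles, and mice were killed at the end of week 18. Control mice did not receive IgG Ab, so AOM/DSS and IgG Ab cannot be told apart when these groups are compared. The labels describe both AOM/DSS groups as colorectal adenocarcinoma, whereas the text of the study calls the anti-S100a9 Ab samples mucosa, so how much tumor each sample held is not known. In bulk tissue, fewer cells of a type and less RNA per cell cannot be told apart.

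The FPKM totals ran from 308377 to 408811 per sample, and the number of fragments behind a value is unknown. Epithelial genes were high throughout: the sum of 10 markers, Epcam, Cdh1 and Vil1 among them, was 4652 to 6072 FPKM in Control, 4015 to 5693 in IgG Ab and 4055 to 5132 in anti-S100a9 Ab samples. Krt19 and Krt8 made up most of each sum, so it says little about the other markers. AOM/DSS + IgG Ab replicate 1 stood apart from its group, with a sum of 7 colonocyte and goblet cell markers of 288 FPKM against 3114 and 4304 in replicates 2 and 3. Most of this sum was the goblet cell gene Zg16, at 164, 2185 and 3502 FPKM in IgG Ab replicates 1, 2 and 3. The colonocyte genes Car4 and Slc26a3 were low in all 3. Car4 was at 1.37, 55.4 and 13.9 FPKM, against 318 to 490 in Control. Slc26a3 was at 2.79, 29.9 and 8.26 FPKM, against 85.1 to 200 in Control. The counts and medians over the 10 genes, the ratios of group means and the share of the excess left are also given without IgG Ab replicate 1.

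All 10 genes rose in AOM/DSS + IgG Ab compared with Control, and 9 of the 10 fell in AOM/DSS + anti-S100a9 Ab compared with AOM/DSS + IgG Ab (limma on log2(FPKM + 0.1), adjusted p under 0.05 over all 15278 genes). In the first comparison 8.18% of all genes tested were called higher and 3.01% lower, and in the second 6.72% were called higher and 14.4% lower. No IgG Ab sample overlapped a Control sample for any of the 10 genes, a pattern that 20.7% of all genes showed in this direction, and no anti-S100a9 Ab sample reached the lowest IgG Ab sample, which held for 28.5% of all genes. Their median log2 fold change was 3.30 against 0.09 over all genes in the first comparison, and -2.85 against -0.06 in the second. Between anti-S100a9 Ab and Control samples none of the 10 genes passed the test. These comparisons share samples, so a gene that is high in the IgG Ab samples differs in both of the first comparisons at once. Among all genes the split of calls depended on the scaling: 1250 rose and 460 fell in IgG Ab compared with Control, or 947 and 631 after quantile normalization, and 1026 rose and 2193 fell with anti-S100a9 Ab compared with IgG Ab, or 957 and 1085 after each sample was scaled to the same total. The 10 genes kept their directions in both comparisons under every scaling tried.

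**Figure D1:**
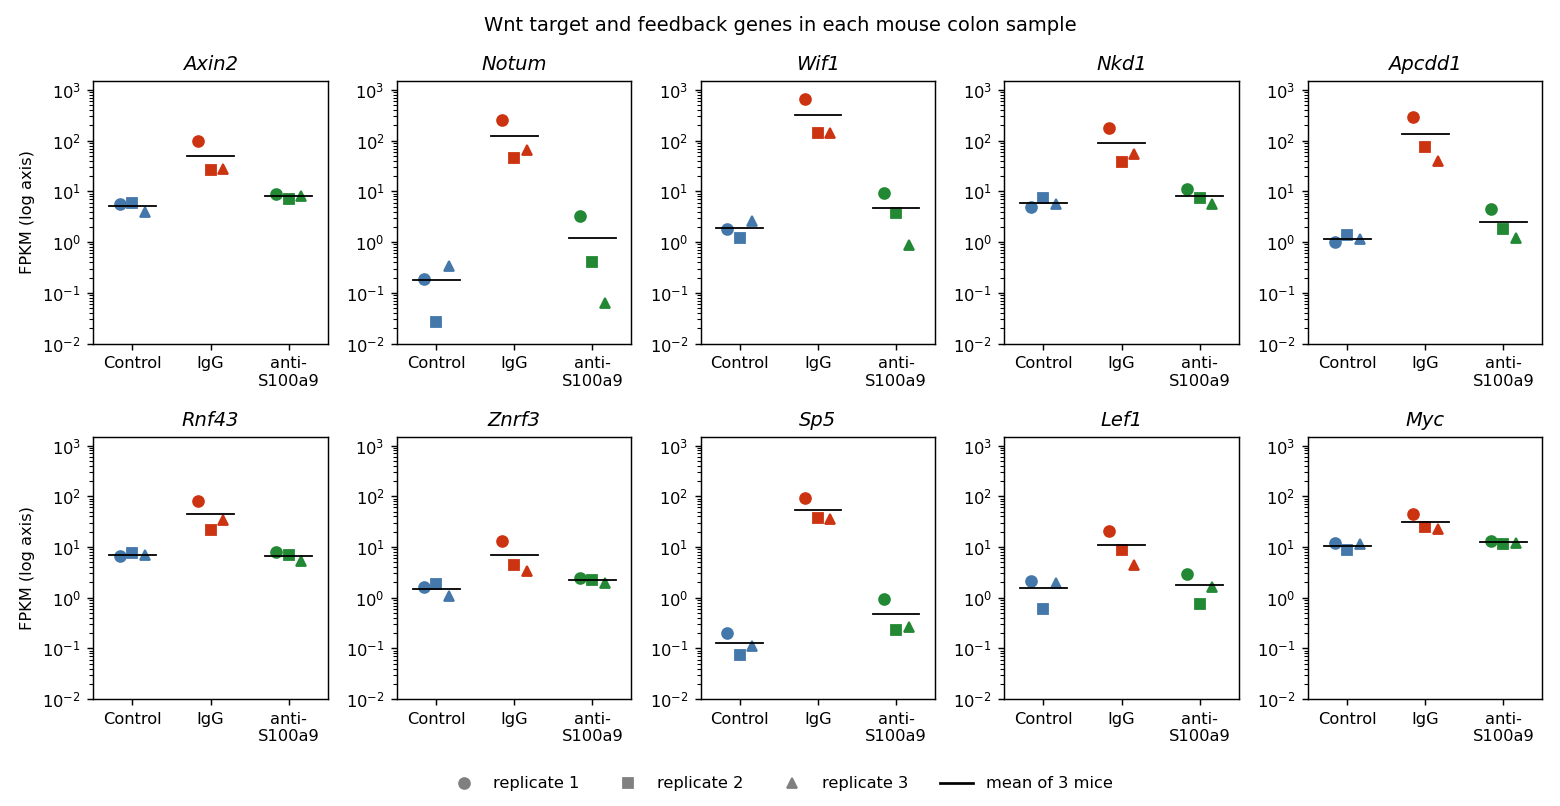
Level of each of the 10 genes in FPKM (logarithmic axis) in each of the 9 samples, with circles, squares and triangles for replicates 1, 2 and 3 and a line at the mean of 3 mice. All 3 IgG Ab samples lie above all Control and anti-S100a9 Ab samples in all 10 panels, and the circle of IgG Ab replicate 1 is the highest.

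Inside the cell, Axin2 and Nkd1 act on the machinery that passes the Wnt signal on. Axin2, a scaffold of the complex that degrades β-catenin, stood at 5.60, 5.84 and 3.87 FPKM in Control mice, at 98.5, 26.5 and 27.7 with IgG Ab and at 9.05, 7.14 and 8.03 with anti-S100a9 Ab. The IgG Ab samples were the 3 highest, and the anti-S100a9 Ab samples lay between the other groups without overlap. Axin2 rose by a log2 fold change of 3.03 (SE 0.45, 95% confidence interval 2.00 to 4.05, limma adjusted p = 0.00538) in IgG Ab compared with Control, and with anti-S100a9 Ab it fell by 2.36 (SE 0.45, limma adjusted p = 0.0137) compared with IgG Ab. Nkd1, which binds Dishevelled and damps the signal from the receptor, was listed at 5.02, 7.33 and 5.71 FPKM in Control, 178, 38.6 and 54.0 in IgG Ab and 10.98, 7.54 and 5.68 in anti-S100a9 Ab samples. For Nkd1, anti-S100a9 Ab replicates 1 and 2 were above all Control samples and replicate 3 was within their range. Its log2 fold change was 3.57 (SE 0.51, limma adjusted p = 0.00436) in the first comparison and -3.19 (SE 0.51, limma adjusted p = 0.0082) in the second. Leaving out anti-S100a9 Ab replicate 2 raised the adjusted p of the fall of Axin2 to 0.0560.

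Notum, Wif1 and Apcdd1 meet the Wnt ligand outside the cell or at its surface. Notum, a secreted enzyme that removes the lipid Wnt proteins need to bind their receptor, was at 0.189, 0.0261 and 0.334 FPKM in Control samples, 255, 45.0 and 65.3 in IgG Ab samples, and 3.22, 0.397 and 0.0628 in anti-S100a9 Ab samples. The anti-S100a9 Ab samples had the widest ratio between highest and lowest of any member and group: replicates 1 and 2 exceeded every Control sample and replicate 3 was below the Control median. Notum rose by 8.50 on the log2 scale (SE 1.07, 95% confidence interval 6.08 to 10.92, limma adjusted p = 0.00259), the largest change among the 10 genes and the 8th highest of the 15278 genes tested. Compared with IgG Ab, it fell by 7.14 with anti-S100a9 Ab (SE 1.07, limma adjusted p = 0.00672). Control replicate 2 and anti-S100a9 Ab replicate 3 lie below the 0.1 FPKM added before taking logarithms, so both fold changes understate those of the FPKM values themselves and depend on that amount: the rise of Notum was 6.29 with 1 FPKM added and 9.39 with 0.01, and the log2 fold change of the fall was -5.64 and -7.63.

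Wif1, a secreted protein that captures Wnt ligands, was listed at 1.83, 1.23 and 2.59 FPKM in Control, at 657, 142 and 143 in IgG Ab, and at 9.26, 3.70 and 0.866 in anti-S100a9 Ab samples. It was the most abundant of the 10 transcripts in each IgG Ab sample, while in the anti-S100a9 Ab group replicate 3 was below all Control samples. The log2 fold change of Wif1 was 6.96 (SE 0.84, limma adjusted p = 0.00213) for IgG Ab compared with Control and -6.19 (SE 0.84, limma adjusted p = 0.00491) for anti-S100a9 Ab compared with IgG Ab. Apcdd1, a membrane glycoprotein that binds Wnt and its co-receptor, had 1.03, 1.35 and 1.14 FPKM in Control, 288, 74.1 and 39.2 in IgG Ab and 4.58, 1.78 and 1.20 in anti-S100a9 Ab samples. Control levels of Apcdd1 were close together, with a mean of 1.17 ± 0.167 FPKM (SD, n = 3), and 2 of the 3 anti-S100a9 Ab samples exceeded all of them. Apcdd1 changed by 6.22 (SE 0.69, limma adjusted p = 0.00163) and -5.39 (SE 0.69, limma adjusted p = 0.00437) on the log2 scale in these comparisons.

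Rnf43 and Znrf3 are paired transmembrane ubiquitin ligases that remove Frizzled receptors from the cell surface. Rnf43 was at 6.72, 7.44 and 6.97 FPKM in Control, 79.8, 21.8 and 33.3 in IgG Ab, and 7.90, 7.02 and 5.36 in anti-S100a9 Ab samples. Its anti-S100a9 Ab values spanned the Control values, and it was the only member whose mean with anti-S100a9 Ab, 6.76 ± 1.29 FPKM (SD, n = 3), was below the Control mean of 7.04 ± 0.369. Rnf43 rose by 2.44 on the log2 scale in IgG Ab (SE 0.40, limma adjusted p = 0.00799) and fell by 2.52 with anti-S100a9 Ab (SE 0.40, limma adjusted p = 0.0082). Znrf3 was less abundant, at 1.62, 1.85 and 1.08 FPKM in Control, 12.9, 4.43 and 3.31 in IgG Ab and 2.47, 2.27 and 1.92 in anti-S100a9 Ab samples. All 3 anti-S100a9 Ab samples lay above all Control samples and below all IgG Ab samples. Znrf3 rose by 1.89 in IgG Ab (SE 0.46, limma adjusted p = 0.0324), and its difference of -1.34 between anti-S100a9 Ab and IgG Ab samples missed the threshold (95% confidence interval -2.38 to -0.31, limma adjusted p = 0.0646). The rise of Znrf3 did not hold up to leaving out samples: its adjusted p was between 0.0540 and 0.0804 when any 1 Control or any 1 anti-S100a9 Ab sample was left out.

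The balance of the ligases was taken within each sample, as the difference of their log2(FPKM + 0.1) values. This log2 ratio of Rnf43 to Znrf3 was 1.99, 1.95 and 2.58 in Control, 2.62, 2.27 and 3.29 in IgG Ab and 1.64, 1.59 and 1.44 in anti-S100a9 Ab samples. Rnf43 thus exceeded Znrf3 in all 9 samples, and the ratio was lowest in the 3 anti-S100a9 Ab samples. The mean ratio with anti-S100a9 Ab was lower than with IgG Ab by 1.17 (two-sided exact permutation test, p = 0.1, adjusted over 6 comparisons p = 0.15) and lower than in Control by 0.62 (exact p = 0.1, adjusted p = 0.15), and IgG Ab and Control differed by 0.55 (exact p = 0.2, adjusted p = 0.24). With 3 mice per group 0.1 is the smallest p this test can give, so no difference in the ratio could pass the threshold.

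Sp5, Lef1 and Myc encode transcription factors. Sp5, a zinc finger protein that is itself a direct Wnt target, was barely listed outside the IgG Ab group, at 0.203, 0.0746 and 0.114 FPKM in Control, 91.9, 36.4 and 35.2 in IgG Ab and 0.956, 0.236 and 0.266 in anti-S100a9 Ab samples. Each anti-S100a9 Ab sample was nonetheless above each Control sample. Sp5 had the smallest adjusted p of the 10 genes in both comparisons, with a rise of 7.77 on the log2 scale in IgG Ab (SE 0.53, 95% confidence interval 6.58 to 8.97, limma adjusted p = 0.000252) and a fall of 6.60 with anti-S100a9 Ab (limma adjusted p = 0.000983). Its Control values lie about the 0.1 FPKM added before taking logarithms, and its log2 fold changes were 5.47 and -5.11 with 1 FPKM added and 8.55 and -6.93 with 0.01, with both calls kept.

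Myc, a transcription factor of growth and cell division genes, was the most abundant member in Control samples, at 11.8, 8.59 and 11.5 FPKM, and reached 44.3, 24.4 and 22.6 in IgG Ab and 13.3, 11.4 and 12.2 in anti-S100a9 Ab samples. The anti-S100a9 Ab values overlapped those of Control and varied little, with a mean of 12.3 ± 0.931 FPKM (SD, n = 3). Its change was the smallest of the 10 genes, a log2 fold change of 1.45 in IgG Ab (SE 0.25, limma adjusted p = 0.0101) and -1.24 with anti-S100a9 Ab (SE 0.25, limma adjusted p = 0.0163). The fall of Myc lost its call without anti-S100a9 Ab replicate 2 (adjusted p = 0.0630) or replicate 3 (adjusted p = 0.0501).

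Lef1 binds DNA as a partner of β-catenin and is also known from T and B lymphocytes. It was at 2.18, 0.609 and 1.92 FPKM in Control, 20.2, 8.55 and 4.47 in IgG Ab and 2.99, 0.738 and 1.60 in anti-S100a9 Ab samples. Every IgG Ab sample exceeded the other 6 samples, and within Control and within anti-S100a9 Ab replicate 2 was the lowest. Lef1 rose by 2.65 on the log2 scale in IgG Ab (SE 0.68, limma adjusted p = 0.0402) and fell by 2.504 with anti-S100a9 Ab (SE 0.68, limma adjusted p = 0.0344). Both calls rested on the full set of samples. The rise lost its call when any 1 of the 3 Control samples, IgG Ab replicate 1 or 2 or anti-S100a9 Ab replicate 3 was left out (adjusted p up to 0.127), and the fall when IgG Ab replicate 1 or 2 or any 1 anti-S100a9 Ab sample was left out (adjusted p up to 0.112).

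The T cell content of the samples was followed beside Lef1 with 7 T cell markers, Cd3d, Cd3e, Cd3g, Cd4, Cd8a, Lck and Cd2. Their summed level was 50.3, 11.4 and 73.2 FPKM in Control, 27.3, 41.4 and 11.5 in IgG Ab and 58.0, 32.1 and 60.8 in anti-S100a9 Ab samples. None of the 7 markers passed the test between IgG Ab and Control (limma, none with an unadjusted p under 0.05), and all 7 had negative fold changes there, whereas Lef1 rose. With anti-S100a9 Ab, 1 of the 7, Cd4, rose compared with IgG Ab (2.26 on the log2 scale, limma adjusted p = 0.0157), whereas Lef1 fell. In each group the sample lowest for Lef1 was also lowest for the T cell sum. This was replicate 2 in Control and in anti-S100a9 Ab and replicate 3 in IgG Ab. The sample highest for Lef1 was not the highest for the T cell sum in any group. The part of T cells in the Lef1 level was not tested. Tcf7, another TCF/LEF factor of T cells, was at 13.1, 3.60 and 13.6 FPKM in Control, 40.9, 15.6 and 14.9 in IgG Ab and 11.9, 4.44 and 8.93 in anti-S100a9 Ab samples. Its fold changes of 1.28 and -1.43 on the log2 scale missed the threshold (limma adjusted p = 0.195 and 0.116). The log2 ratio of Lef1 to Tcf7 within a sample was -2.56 ± 0.19 in Control, -1.20 ± 0.46 in IgG Ab and -2.27 ± 0.27 in anti-S100a9 Ab (SD, n = 3), and IgG Ab differed from Control by 1.36 and anti-S100a9 Ab from IgG Ab by -1.07 (two-sided exact permutation tests, p = 0.1 each, adjusted p = 0.15). Anti-S100a9 Ab and Control differed by 0.29 (exact p = 0.3, adjusted p = 0.3).

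**Figure D2:**
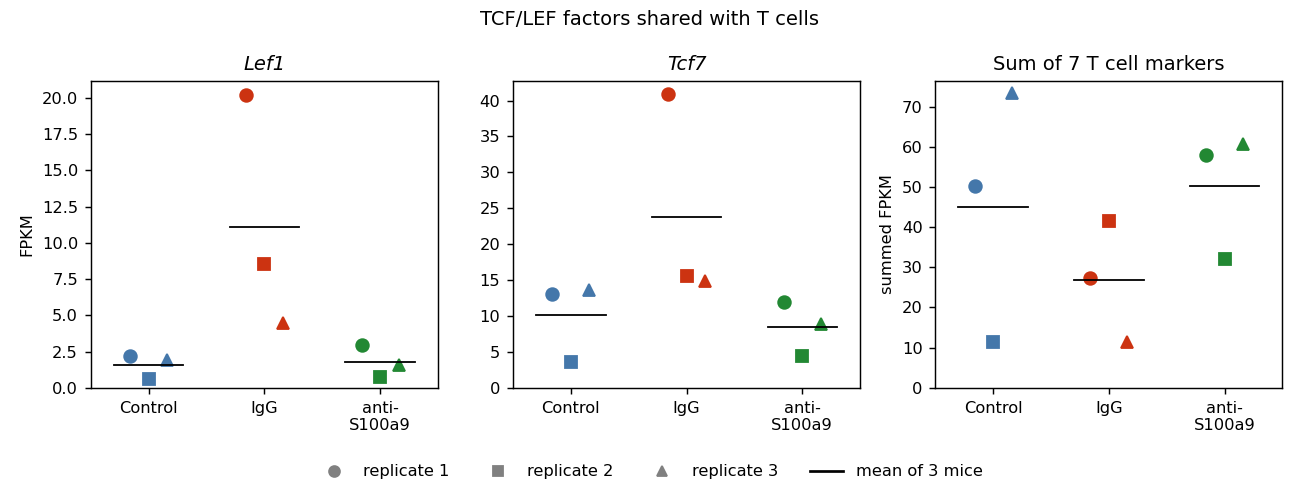
Levels of Lef1 and Tcf7 and the sum of 7 T cell markers in FPKM (linear axes from 0) in each sample, with circles, squares and triangles for replicates 1, 2 and 3 and a line at the mean of 3 mice. Lef1 is highest in the 3 IgG Ab samples, while the T cell sum there, 11.5 to 41.4 FPKM, lies within the range of the Control samples.

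Promoter sequence was available for 6 of the 10 genes, Axin2, Wif1, Nkd1, Rnf43, Sp5 and Lef1, which have 10 promoters in all in RefSeq on GRCm38.p6 (250 bases before to 50 bases after each start). They were searched on both strands for 4 words of 7 bases that TCF/LEF factors are known to bind, namely CTTTGAA and the similar word CTTTGAT, as well as CTTTGTA and the related word CTTTGTT. At least 1 word was found in 2 of these promoters, that of Sp5 and 1 of the 4 of Lef1, or 20%, against 16.9% of all 32851 mouse promoters of the same length. By gene this is 2 of 6, against 19.0% of 27025 genes. A match is a description of the letters in this window, and binding was not measured. These promoters are shown because they hold the matches, which are in capitals, 5′ to 3′ on the plus strand, for Sp5 at chr2:70474673-70474972 and for Lef1 at chr3:131156044-131156343.
Sp5: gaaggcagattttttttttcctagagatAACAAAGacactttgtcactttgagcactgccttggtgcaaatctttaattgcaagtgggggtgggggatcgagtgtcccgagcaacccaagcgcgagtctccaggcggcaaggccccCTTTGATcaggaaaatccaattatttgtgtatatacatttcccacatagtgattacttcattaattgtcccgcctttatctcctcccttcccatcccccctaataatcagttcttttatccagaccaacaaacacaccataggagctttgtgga
Lef1: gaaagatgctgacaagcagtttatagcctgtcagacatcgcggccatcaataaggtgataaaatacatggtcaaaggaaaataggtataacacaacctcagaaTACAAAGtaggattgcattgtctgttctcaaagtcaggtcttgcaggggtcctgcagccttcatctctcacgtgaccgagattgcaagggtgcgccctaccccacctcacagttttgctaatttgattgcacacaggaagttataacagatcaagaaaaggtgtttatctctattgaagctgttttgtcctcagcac
In the Sp5 promoter the matches begin at positions -222, read on the opposite strand, and -104 relative to the start, and in the Lef1 promoter the match, also on the opposite strand, begins at -147. No word was found in the other 8 promoters, those of Axin2, Wif1, Nkd1 and Rnf43 and the other 3 of Lef1.

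The members differed widely in the size of their rise. The mean in IgG Ab was 665, 418, 167 and 114 times the Control mean for Notum, Sp5, Wif1 and Apcdd1, and 15.0, 9.98, 7.06, 6.38, 4.54 and 2.86 times for Nkd1, Axin2, Lef1, Rnf43, Znrf3 and Myc. These ratios leaned on IgG Ab replicate 1: without it they were 301, 274, 75.9 and 48.3 for the former genes and 7.69, 5.31, 4.15, 3.91, 2.55 and 2.21 for the latter, lower by a factor of 1.29 to 2.36. In Control the order of mean levels was Myc, Rnf43, Nkd1, Axin2, Wif1, Lef1, Znrf3, Apcdd1, Notum and Sp5, and the sample ranges of 6 of the 9 neighboring pairs overlapped. In IgG Ab it became Wif1, Apcdd1, Notum, Nkd1, Sp5, Axin2, Rnf43, Myc, Lef1 and Znrf3, with 8 of 9 neighboring ranges overlapping, and Wif1 was above Apcdd1 in 3 of 3 samples. With anti-S100a9 Ab, Myc was again the highest and Notum and Sp5 the lowest, and 8 of 9 neighboring ranges overlapped. Wif1 moved from percentile 28.0 of the genes tested in Control to percentile 99.1 in IgG Ab and 43.5 in anti-S100a9 Ab samples.

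**Figure D3:**
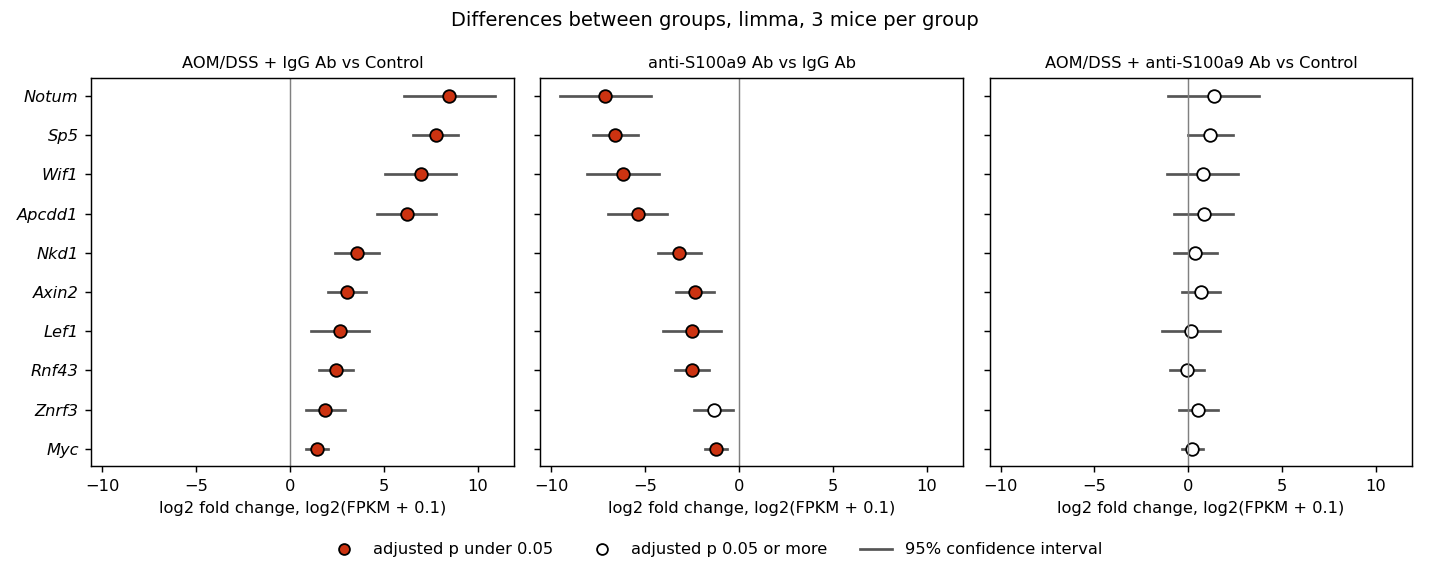
Log2 fold change of each gene on the log2(FPKM + 0.1) scale with its 95% confidence interval from limma, for IgG Ab compared with Control, anti-S100a9 Ab compared with IgG Ab, and anti-S100a9 Ab compared with Control, with filled points where the adjusted p was under 0.05. All 10 points are filled in the first panel, 9 (all but Znrf3) in the second and none in the third, where each interval includes 0.

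The mice within a group differed together across these genes. IgG Ab replicate 1 was the highest of its group for 10 of 10 genes, from 1.81 to 5.67 times replicate 2 and from 1.96 to 7.36 times replicate 3. Anti-S100a9 Ab replicate 1 was likewise the highest of its group for 10 of 10 genes, from 1.09 times replicate 2 to 51.3 times replicate 3. No Control sample was highest for more than 5 genes. The mean log2(FPKM + 0.1) over the 10 genes was 1.08, 0.74 and 1.04 for Control, 6.60, 4.84 and 4.77 for IgG Ab and 2.37, 1.34 and 0.96 for anti-S100a9 Ab mice. Without IgG Ab replicate 1, 9 of the 10 genes still rose in IgG Ab and 8 of the 10 fell with anti-S100a9 Ab, and the medians of the log2 fold changes were 2.66 and -2.27. Of all 15129 genes tested in that fit, 888 rose in IgG Ab and 1157 fell with anti-S100a9 Ab. Lef1 lost both calls without IgG Ab replicate 1.

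Markers of other cells moved with the same groups, and their part in the results above was not tested. Over all genes tested, 8.18% were called higher and 3.01% lower in IgG Ab compared with Control. For anti-S100a9 Ab compared with IgG Ab the shares were 6.72% higher and 14.4% lower. In IgG Ab compared with Control, 5 of 7 fibroblast markers rose (summed level 420 to 505 FPKM in Control, 627 to 2105 in IgG Ab, 565 to 743 in anti-S100a9 Ab), as did 5 of 6 neutrophil markers (90.7 to 120, 128 to 614 and 101 to 178 FPKM). S100a9, whose protein the antibody binds, was among them, at 0.370 to 0.859 FPKM in Control, 63.1 to 267 in IgG Ab and 5.54 to 11.6 in anti-S100a9 Ab samples. Ly6g did not rise and made up most of the neutrophil sum in Control and anti-S100a9 Ab samples. It was at 88.8 to 117 FPKM in Control, 26.1 to 96.0 in IgG Ab and 82.1 to 150 in anti-S100a9 Ab. The other 5 markers were higher in all anti-S100a9 Ab than in all Control samples, as were 17.3% of all genes. All 4 Paneth cell markers rose in IgG Ab (6.30 to 50.7, 877 to 1388 and 21.0 to 84.6 FPKM). Mmp7 is 1 of these 4 and is also counted among the other reported Wnt targets below, so the counts of these lists share a gene. Of the 10 epithelial markers 1 rose, Krt18 by 1.19 on the log2 scale (limma adjusted p = 0.0256), and 9 were not called. Among these 9, Krt20 and Cdx1 differed by -0.90 and -0.93 (limma adjusted p = 0.137 and 0.123). Krt18 fell by 1.42 with anti-S100a9 Ab compared with IgG Ab (limma adjusted p = 0.0129), the only epithelial marker called there. Among 12 markers of squamous epithelium and hair follicle, 7 could be tested and 4 rose, with sums of 2.34 to 4.41, 13.4 to 64.3 and 2.25 to 3.86 FPKM and Krt71 listed at 0 in all samples. Of the 7 colonocyte and goblet cell markers (4257 to 5469, 288 to 4304 and 2663 to 4763 FPKM), 3 were lower in IgG Ab. These were the colonocyte genes Car1, Car4 and Slc26a3. The goblet cell genes Muc2, Fcgbp and Zg16 differed by -0.27, -1.35 and -1.62 and were not called (limma adjusted p = 0.829, 0.203 and 0.298). Muc2 was at 51.6, 398 and 461 FPKM in IgG Ab samples, against 232 to 287 in Control. Of the 4 adipocyte markers 3 were lower in IgG Ab. IgG Ab replicate 1, the sample with the highest values of the 10 genes, had the lowest sum of its group for most lists. Only its T cell sum was in between, and its squamous and hair follicle sum and proliferation sum were the highest. Anti-S100a9 Ab replicate 1 was also highest of its group for the 10 genes. Its epithelial, colonocyte and goblet cell, neutrophil and macrophage sums were the lowest of its group. Its fibroblast, smooth muscle, endothelial, Paneth cell, adipocyte and squamous and hair follicle sums were the highest. None of 8 proliferation genes, 6 smooth muscle, 5 macrophage, 4 B cell or 3 endothelial markers passed the test between IgG Ab and Control (limma, adjusted p under 0.05), and 2 of the proliferation genes and 1 smooth muscle marker had an unadjusted p under 0.05, against 29.5% of all genes. With anti-S100a9 Ab compared with IgG Ab, 2 of the 8 proliferation genes fell, Ccnb1 by 0.87 and Cdk1 by 0.86 on the log2 scale (limma adjusted p = 0.0216 and 0.0232), and 1 of the 6 smooth muscle markers, Myh11, rose by 2.01 (limma adjusted p = 0.0331). In that comparison 3 of 7 fibroblast, 4 of 6 neutrophil, 4 of 4 Paneth cell and 5 of 7 tested squamous and hair follicle markers also fell. The colonocyte genes Car1, Car4 and Slc26a3 rose, and the goblet cell genes Muc2, Fcgbp and Zg16 were not called. No macrophage, B cell, endothelial or adipocyte marker passed the test (limma). An unadjusted p under 0.05 was found for 1, 2, 0 and 0 of them, against 5978 of all 15278 genes.

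The comparison of anti-S100a9 Ab with Control asks how far the levels after neutralization stood from normal mucosa. None of the 10 genes passed the test, at an adjusted p under 0.05 or by the thresholds of the study (unadjusted p under 0.05 and more than 2-fold), and none had an unadjusted p under 0.05 (limma). Few genes of any kind did: 0.00655% of all genes were called higher and 0.00655% lower at an adjusted p under 0.05, and 2.28% higher and 0.864% lower by the thresholds of the study, although 2439 genes had an unadjusted p under 0.05. For 3 of the 10 genes, Axin2, Znrf3 and Sp5, all anti-S100a9 Ab samples were above all Control samples, as were those of 17.3% of all genes. The fold change was positive for 9 of 10 genes, all but Rnf43 (-0.08), which turned positive after scaling to the same total (0.12), while Lef1 turned negative after quantile normalization (-0.0045). The 10 genes had a median of 0.61 on the log2 scale against 0.04 over all genes, and without anti-S100a9 Ab replicate 1 the median was 0.17. The intervals show what could not be resolved with 3 mice per group. They ran from -1.06 to 3.78 for Notum, from -1.13 to 2.67 for Wif1, from -0.36 to 1.69 for Axin2 and from -0.36 to 0.79 for Myc. Sp5 came nearest to the threshold, with a log2 fold change of 1.17 (95% confidence interval -0.02 to 2.37, limma adjusted p = 0.317).

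Expressed as the part of the excess of IgG Ab over Control that was still present with anti-S100a9 Ab, the means ranged from -0.75% for Rnf43 to 13.1% for Znrf3, with a median of 1.59%. Myc retained 8.32% and Axin2 6.49%. Without IgG Ab replicate 1 the means ranged from -1.40% for Rnf43 to 29.9% for Znrf3, with a median of 3.30%, and Myc retained 12.8% and Axin2 13.5%. These percentages are descriptions with no test.

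The rest of the pathway was examined in lists by role. The counts of every list stand against the shares over all genes tested. In IgG Ab compared with Control these were 8.18% higher and 3.01% lower. With anti-S100a9 Ab compared with IgG Ab they were 6.72% higher and 14.4% lower. The counts of the core complex were near these shares. Of 15 genes of the core complex and its regulators, 1 rose and none fell in IgG Ab compared with Control, with a median log2 fold change of 0.30. That gene was Csnk1e, a casein kinase (1.51, limma adjusted p = 0.0112). Ctnnb1, which encodes β-catenin itself, was at 185, 182 and 137 FPKM in Control, 381, 210 and 214 in IgG Ab and 171, 180 and 181 in anti-S100a9 Ab samples. Its IgG Ab samples were the 3 highest, but the log2 fold changes of 0.63 and -0.54 missed the threshold (limma adjusted p = 0.127 and 0.137). In IgG Ab compared with Control, Apc, the scaffold that is lost in many colon tumors, differed by 0.00 (95% confidence interval -0.66 to 0.66, limma adjusted p = 0.998), and Axin1, the constitutive relative of Axin2, by 0.30 (limma adjusted p = 0.137). For Apc, the anti-S100a9 Ab samples (10.6, 9.61 and 9.82 FPKM) lay above all IgG Ab (4.56 to 7.79) and Control samples (3.97 to 8.41). Its differences from IgG Ab and from Control, 0.68 each, missed the threshold (limma adjusted p = 0.119 and 0.309). With anti-S100a9 Ab, 2 of the 15 fell compared with IgG Ab, Csnk1e and the kinase gene Gsk3a, and none rose (median -0.17).

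Among 15 transcription factors and coactivators of the pathway, 2 rose and 1 fell in IgG Ab compared with Control (median 0.21). The corepressor genes Tle1 and Tle3 rose by 1.08 and 0.95, and Tcf7l1, a TCF factor that mainly represses, fell by 1.52 on the log2 scale (limma adjusted p = 0.0255, 0.0302 and 0.00225). Tcf7l2, the main TCF factor of the intestine, differed by -0.44 (limma adjusted p = 0.156). With anti-S100a9 Ab compared with IgG Ab, 2 of the 15 rose and 4 fell (median 0.02).

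Of 16 other antagonists, 13 could be tested and 2 rose in IgG Ab compared with Control, with none lower (median 0.32). Dkk2, a secreted protein that binds the LRP co-receptor, was at 0.235, 0.231 and 0.137 FPKM in Control, 16.4, 8.04 and 7.27 in IgG Ab and 0.465, 0.179 and 0.225 in anti-S100a9 Ab samples. Its IgG Ab samples did not overlap the other groups. Dkk2 rose by 5.07 (limma adjusted p = 0.000359) and fell by 4.74 (limma adjusted p = 0.00102), and the related Dkk3 rose by 1.46 (limma adjusted p = 0.0401). Dkk1 was listed at 0 in all 9 samples. Nkd2 is the paralog of Nkd1. It differed in IgG Ab from Control by -0.66 (limma adjusted p = 0.123), and with anti-S100a9 Ab it rose by 1.42 compared with IgG Ab (limma adjusted p = 0.0111), from 1.65, 1.28 and 1.92 to 5.90, 3.97 and 3.70 FPKM.

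Of 18 other genes reported as Wnt targets, 17 could be tested, 9 rose and none fell in IgG Ab compared with Control, with a median of 1.23. The matrix protease gene Mmp7 rose by 9.67, from no more than 0.724 FPKM in Control to 263, 148 and 353 in IgG Ab (limma adjusted p = 0.000881). Prox1, a homeobox factor, rose by 4.61, Fosl1, an AP-1 subunit, by 3.54, and Lgr5, the R-spondin receptor that marks crypt stem cells, by 3.11 (limma adjusted p = 0.00512, 0.000694 and 0.0325). Fosl1 was at 0.0227, 0.0837 and 0.111 FPKM in Control and 1.81, 1.38 and 2.56 in IgG Ab samples. Its Control values lie about the 0.1 FPKM added before taking logarithms, so its fold change depends on that amount. So does that of Mmp7, at 0.0353, 0.125 and 0.724 FPKM in Control. With anti-S100a9 Ab compared with IgG Ab, 11 of the 17 fell and none rose (median -1.08). Ccnd1, the cyclin gene often named as a target, had fold changes of 0.86 and -0.50 that missed the threshold. A Wnt list that the study chose on these same samples holds 6 of the 10 genes described here (all but Apcdd1, Rnf43, Znrf3 and Sp5), Bambi, Fosl1 and Mmp7 of the other targets, Csnk1e of the core complex and Dkk2 of the other antagonists, so the direction of these genes is not independent evidence. The genes outside that list were measured in the same samples.

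Receptors and ligands of the R-spondin axis, which oppose Rnf43 and Znrf3, were mixed. Of 7 listed genes 6 could be tested, and 2 rose in IgG Ab compared with Control, Lgr6 by 4.27 and Lgr5 by 3.11 (limma adjusted p = 0.00800 and 0.0325), with a median of 0.59. Lgr6 was at 0.0226, 0.0463 and 0.0378 FPKM in Control, 8.92, 1.15 and 1.47 in IgG Ab and 0.212, 0.0563 and 0.0163 in anti-S100a9 Ab samples. It passed the filter on low values only through its IgG Ab samples. Its Control values lie below the 0.1 FPKM added before taking logarithms, so its fold changes depend on that amount. With anti-S100a9 Ab, Lgr5 and Lgr6 fell while Rspo2 and Lgr4 rose compared with IgG Ab. Of 18 partners and targets of Myc, 4 rose and none fell in IgG Ab compared with Control (median 0.33): the paralog Mycl by 1.14, the cell cycle kinase gene Cdk4 by 1.04, and the nucleolar genes Npm1 and Ncl by 0.78 and 0.60 (limma adjusted p = 0.0462, 0.0213, 0.0180 and 0.0273). With anti-S100a9 Ab, 6 of the 18 fell compared with IgG Ab and none rose (median -0.42). None of the genes of these 6 lists passed the test between anti-S100a9 Ab and Control at an adjusted p under 0.05 (limma). At an unadjusted p under 0.05, which 16% of all genes had in this comparison, there were 4 of 15 in the core complex, 3 of 15 among the transcription factors, 3 of 13 among the other antagonists, 1 of 17 among the other targets, 1 of 18 among the partners and targets of Myc and 2 of 6 in the R-spondin axis.

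**Figure D4:**
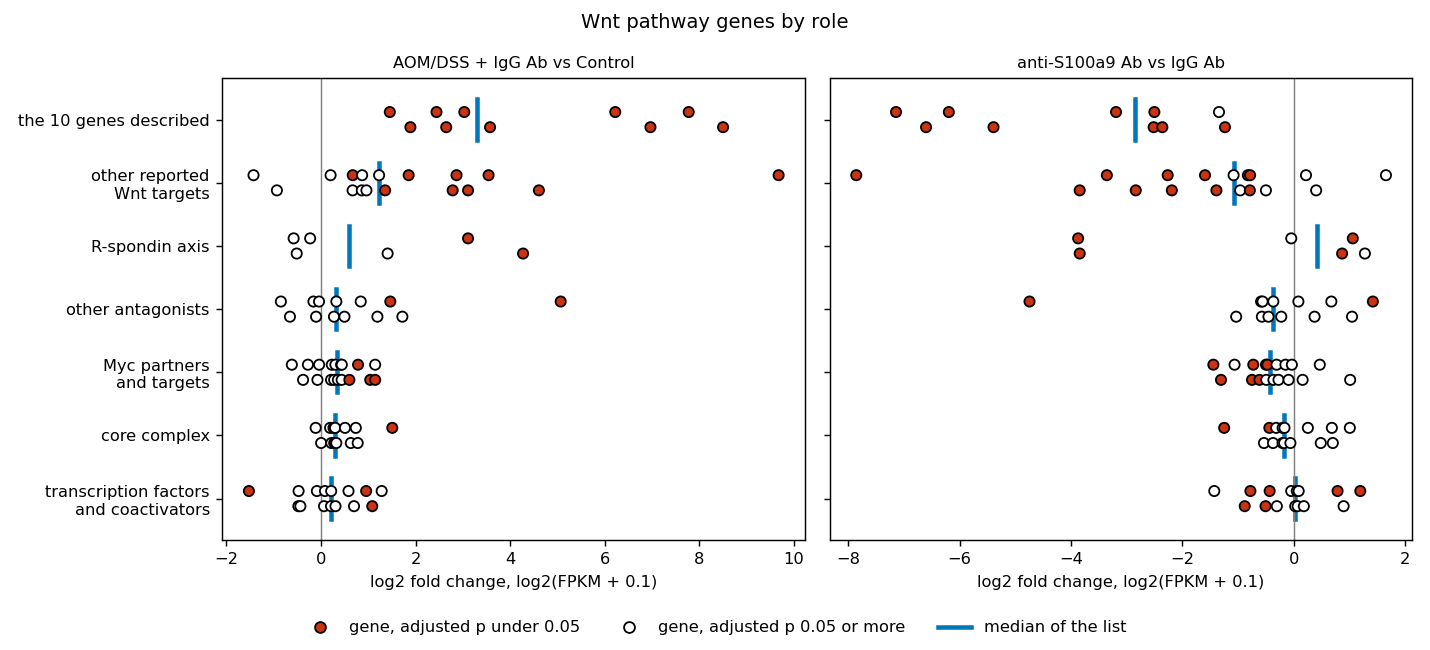
Log2 fold change on the log2(FPKM + 0.1) scale of each tested gene of the pathway lists, for IgG Ab compared with Control and anti-S100a9 Ab compared with IgG Ab, with filled points where the limma adjusted p was under 0.05 and a bar at the median of each list. The medians are 3.30 and -2.85 for the 10 genes described, 1.23 and -1.08 for the other reported Wnt targets, and between -0.42 and 0.59 in the other 5 lists.

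The genes whose levels followed Axin2 most closely were sought among 13072 genes whose mean reached 1 FPKM in any group, by the root-mean-square difference of their log2 values from those of Axin2 over the 9 samples after each gene was centered on its own mean. Sox4, a transcription factor gene and itself a reported Wnt target, was the nearest, at 0.183, with 8.30, 6.81 and 4.85 FPKM in Control, 104, 27.0 and 33.2 in IgG Ab and 11.1, 9.51 and 7.72 in anti-S100a9 Ab samples. It was followed by Gprin2 (0.219), the amino acid transporter gene Slc7a8 (0.235), the ETS factor gene Etv5 (0.235) and the transporter gene Slc16a10 (0.243). Gprin2 was at 0, 0.0359 and 0 FPKM in Control and 0.130, 0.0799 and 0.0582 in anti-S100a9 Ab samples. Its difference from Axin2 thus depends on the 0.1 FPKM added before taking logarithms. Among the other members Rnf43 was the nearest to Axin2, at rank 43 with a difference of 0.405, followed by Nkd1 at rank 59 and Znrf3 at rank 121. The measure counts size as well as shape, and Apcdd1, Wif1, Sp5 and Notum, with their larger fold changes, had differences of 1.55 or more.

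On GRCm38, Axin2 (108920349 to 108950783), Notum (120653788 to 120661175, minus strand), Rnf43 (87662722 to 87735539) and Znrf3 (5276324 to 5444847, minus strand) all lie on chromosome 11. Wif1 lies on chromosome 10 (121033960 to 121100650), Nkd1 on chromosome 8 (88521354 to 88594884), Sp5 on chromosome 2 (70474923 to 70477729), Lef1 on chromosome 3 (131110471 to 131224356), Myc on chromosome 15 (61985391 to 61990374) and Apcdd1 on chromosome 18. All 10 are annotated as protein coding in GENCODE M21, and those without a stated strand are on the plus strand. For 3 of them exons overlap antisense transcripts: 209 of 5506 exonic bases of Axin2, 708 of 2408 bases of Notum for Notumos and 210 for Myadml2os, and 1208 of 8788 bases of Lef1. Whether the counting used strand is not given in the sources used here, so fragments of these genes and of their antisense partners cannot be told apart in the overlaps.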

How the data were processed

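RNA of colon from 9 mice, 3 per group by the sample labels, was sequenced. The authors deposited, per mouse, 1 FPKM value for each of 21544 rows named by gene symbol. The unit was read from the values. The submitters' processing notes name TopHat, Cufflinks, HTSeq, DESeq and GRCm38, without roles, and strandedness is not given in the sources used here. From the deposited FPKM values, 46 rows with repeated symbols were summed. log2(FPKM + 0.1) of 15278 genes (0.1 FPKM or more in 3 or more samples) was fitted with limma 3.58.1 in R 4.3.3 (all 9 samples, intensity trend, 8.87 degrees of freedom), without further scaling, with Benjamini-Hochberg adjustment over all genes. The p-values measure the spread between these mice. Single values were compared with two-sided exact permutation tests in scipy 1.17.1. The fit was tested on simulated data. Depth is unknown, so no counting error was computed, and DESeq was not rerun.

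The 10 genes, the pathway and marker lists and the alternatives were chosen with earlier results of these data known. The rule names all 10 genes, 6 fixed pathway genes (Ctnnb1, Apc, Tcf7, Tcf7l2, Axin1 and Nkd2), up to 4 called genes of each list with the largest change in IgG Ab compared with Control, and the 5 genes nearest to Axin2. Gsk3a, Dkk1, Ccnd1, Bambi, Cd4, S100a9, Ly6g, Ccnb1, Cdk1, Myh11, Rspo2, Lgr4, Zg16, Muc2, Fcgbp, Car1, Car4, Slc26a3, Krt8, Krt18, Krt19, Krt20 and Cdx1 are outside the rule and were named after their values were seen. Alternatives covered pseudocounts, filters, scalings, the intensity trend, the groups in the fit, the thresholds of the study, the replicate block and leaving out each sample. Promoters are from RefSeq on GRCm38.p6 and positions from GENCODE M21 on GRCm38. No 2 files held the same values.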

Additional observations from a re-analysis of the deposited data

How the results depend on the processing

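Of the 10 genes, the number called was 10 in IgG Ab compared with Control, 8 to 10 under the alternatives (8 with only these groups in the fit, 9 without the filter) and 8 to 10 when 1 sample was left out. For anti-S100a9 Ab compared with IgG Ab it was 9, 8 after scaling to equal totals, 10 by the thresholds of the study, and from 6 without anti-S100a9 Ab replicate 2 to 10 without IgG Ab replicate 3. For anti-S100a9 Ab compared with Control it was 0 throughout, also by the thresholds of the study. Notum, Wif1, Nkd1, Apcdd1, Rnf43 and Sp5 kept both calls in all of these fits. Outside the single-sample fits, the rise of Lef1 had an adjusted p of 0.0517 without the filter and 0.0749 with only these groups in the fit, the rise of Znrf3 0.0946 in the latter, and the fall of Lef1 0.0509 after scaling to equal totals. Reversals occurred only for anti-S100a9 Ab compared with Control, where neither gene was called: Rnf43 (-0.08) became 0.12 after scaling to equal totals and ranged from -0.20 to 0.0797 when 1 sample was left out (reversed without anti-S100a9 Ab replicate 3), and Lef1 (0.14) became -0.0045 after quantile normalization, -0.39 without Control replicate 2 and -0.31 without anti-S100a9 Ab replicate 1, in a range up to 0.63. The cause was not tested.

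The labels do not say that replicate numbers pair the mice. Deviations of samples with the same number correlated by -0.187 to 0.249, and those with different numbers by -0.267 to 0.190. With 3 mice per group these values cannot exclude a pairing or a shared batch. With the replicate block, 10, 10 and 0 of the 10 genes were called in the 3 comparisons, and the fall of Znrf3 gained its call (adjusted p = 0.0435), as it did without IgG Ab replicate 3 (0.0477). Leaving out 1 sample moved the differences in the ratio of Rnf43 to Znrf3 to 0.27 to 0.78, -1.40 to -0.89 and -0.73 to -0.42, and those of Lef1 to Tcf7 to 1.20 to 1.62, -1.33 to -0.91 and 0.14 to 0.38. Scaling to equal totals moved the median of all genes to 0.18, 0.05 and 0.24 in the 3 comparisons.

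Over all genes, 502 rose and 101 fell in IgG Ab with only these groups in the fit, against 1250 and 460, and scaling to equal totals left 1085 lower with anti-S100a9 Ab compared with IgG Ab, against 2193. Leaving out 1 sample gave 511 to 1383 higher and 80 to 784 lower in the first comparison and 88 to 1446 higher and 428 to 2668 lower in the second. With 3 mice per group and unknown depth, small differences between anti-S100a9 Ab and Control could not be resolved.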
